A study of Homo sapiens with 72 samples.

Results

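Normal human dermal fibroblasts, the matrix-producing primary cells of the skin, were held for 24 hours with 0.37 µM omaveloxolone or with its solvent DMSO. The cells were wildtype, and polyadenylated RNA was counted per gene and well by DRUG-seq, in which barcoded primers mark the RNA of each lysed well before pooling. The 4 wells at 0.37 µM (plate positions K6, K16, L6 and L16) were set against all 32 wells labelled DMSO (columns 2 and 23, rows A to P), of 72 wells in all. Wells at 0.12 and 1.11 µM, 4 at each dose, served as the neighbouring doses. Counts covered 23170 genes, of which 14264 passed the filter on low counts and were tested. All wells shared a serum-containing medium and the same fibroblast stock. The labels number the wells as biological replicates but name no separate cultures or donors, so p-values measure the spread between these wells, which may be technical. The protocol gives 16 DMSO wells to a plate. Drug wells lay in rows K and L of inner columns and DMSO wells in the outer columns 2 and 23, so plate column and treatment cannot be told apart.

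Omaveloxolone is a synthetic triterpenoid that reacts with cysteines of KEAP1. KEAP1 presents the transcription factor NRF2 for degradation, and freed NRF2 pairs with small MAF proteins at antioxidant response elements near genes of detoxification. Cells meet damaged proteins with other programmes: HSF1 turns on chaperone genes, NRF1 (gene NFE2L1) turns on proteasome genes, and the integrated stress response raises ATF4 and CHOP, which turn on amino acid transporters and tRNA synthetases. In skin, fibroblasts lay down collagen and other matrix, keep contractile actin bundles and divide in response to growth factors such as PDGF. The dose series asks how the fibroblast transcriptome changes over its range, and the comparison here takes the dose of 0.37 µM.

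Genes of protein folding, protein degradation and the stress responses rose at 0.37 µM, and genes of division, sterol synthesis, matrix and mitochondrial DNA fell. Of 14264 genes, 3533 passed an adjusted p of 0.05 (24.8%), 1593 higher (11.2%) and 1940 lower (13.6%) than in DMSO. All changes come from edgeR's quasi-likelihood test with Benjamini-Hochberg adjustment over the 14264 genes of a fit of all 72 wells, given as log2 change ± SE. The median size of the change was 1.20 on the log2 scale among genes called higher and 1.66 among genes called lower. A change of 16-fold or more was fitted for 76 higher and 258 lower genes. Genes called higher took 37.4% of all counts at 0.37 µM against 14.6% in DMSO, and genes called lower took 22.1% against 43.3%. Of the genes called, 104 lower genes had 0 counts in all 4 wells at 0.37 µM and 5 higher genes had 0 counts in all 32 DMSO wells. All 4 wells lay above every DMSO well for 861 genes (6.04% of those tested) and below every DMSO well for 740 (5.19%). The split between directions depended on the scaling. The median of all genes was -0.14 on the log2 scale. RLE size factors, an alternative scaling within edgeR, moved it up by 0.25 and gave 2486 higher genes, 63.4% of those called in place of 45.1%. On the left of the plate alone, K6 and L6 against the 16 DMSO wells there gave 994 higher and 1132 lower genes. On the right, K16 and L16 against the 16 DMSO wells there gave 1052 higher and 1297 lower.

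**Figure D1:**
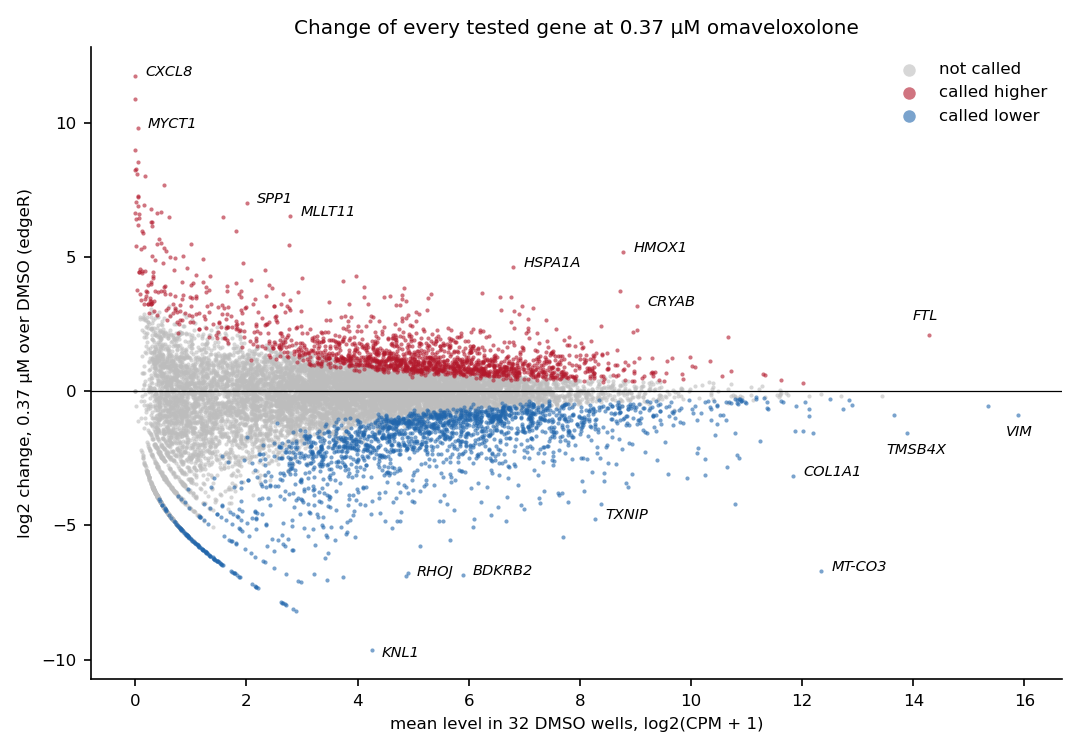
Each point is a tested gene, with its mean level in DMSO, log2(CPM + 1), on the x axis and its log2 change, 0.37 µM over DMSO, on the y axis. Red points are called higher, blue points called lower and grey points neither, and blue points reach further from 0 than most red ones.

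Well K6 (replicate 2 of the labels) stood apart from the other 3. Levels are given in CPM, counts scaled to a common library size with TMM factors, and the 4 values at 0.37 µM stand in the order K6, K16, L6 and L16. Among called genes with at least 10 CPM in a group, K6 was the well farthest from DMSO in 612 of 1492 higher genes (41.0%) and in 547 of 1546 lower genes (35.4%), where the other wells took 253 to 344 and 317 to 343 genes each. Its excess was uneven between genes: against the mean of the other 3 wells, K6 held 5.49 times as much GADD45G, 4.62 times as much MT1G, 2.84 times as much CCN2 and 2.19 times as much HSPA5. Without K6, 1236 genes were called higher and 1446 lower, among them 1211 and 1391 of the genes called with it. That made 2682 calls, against 2880 without K16, 2836 without L16 and 2800 without L6. Calls were thus lost without any of the wells, and gene groups were not counted without the other wells. Counts of gene groups without K6, and with RLE size factors, are given below where they differ by more than 1.5 times or where the balance of calls moves.

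**Figure D2:**
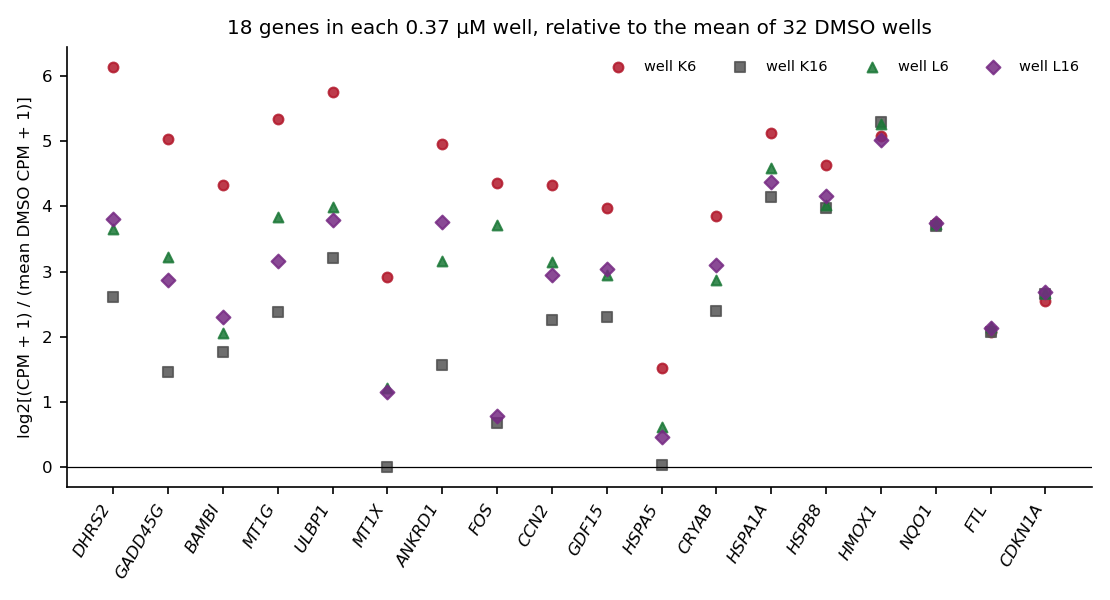
The 4 wells at 0.37 µM are shown separately for 18 genes, with the gene on the x axis and the log2 ratio of CPM + 1 in the well to the DMSO mean on the y axis. Well K6 lies above the other 3 for MT1G, DHRS2, GADD45G and CCN2, while the wells lie close together for NQO1, FTL and CDKN1A.

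The labelled cell type was checked on marker genes. All 12 dermal fibroblast markers were counted, and their summed level was 32168 to 36071 CPM at 0.37 µM against 67949 to 82016 CPM in DMSO. Most of each sum was VIM, which alone took 2.89 to 3.22% of all counts at 0.37 µM and 5.25 to 6.50% in DMSO. Endothelial and adipocyte markers were each under 1 CPM or at 0 in both groups. Summed immune markers were 86.0 to 92.2 CPM at 0.37 µM against 92.4 to 179 CPM in DMSO, and summed keratinocyte markers 420 to 472 CPM against 337 to 535 CPM. Of 8 keratinocyte markers 5 were counted, and CDH1, TP63, DSG3 and SFN were under 1 CPM in both groups. That sum thus rested on the remaining counted marker. Melanocyte markers summed to 4.84 to 8.47 CPM against 12.2 to 62.8 CPM, with MLANA and PMEL under 1 CPM in both groups. Of 5 Schwann cell markers 4 were counted, and they summed to 22.8 to 45.4 CPM at 0.37 µM against 0 to 8.65 CPM in DMSO, with NGFR and S100B under 1 CPM in both groups. In bulk wells, fewer cells of a type and less RNA per cell cannot be told apart, here or in the falls described below.

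The transcription factors of these programmes moved in part. Of 22 stress regulators, 8 rose and 3 fell, and 10 rose and 2 fell with size factors. MAFG, a small MAF partner of NRF2, stood at 135, 172, 193 and 169 CPM at 0.37 µM, against 15.005 to 57.2 CPM (median 35.6) in DMSO (log2 change 2.24 ± 0.24, adjusted p = 7.03e-12). MAFF, another small MAF, rose by 1.97 ± 0.22 on the log2 scale, with all 4 wells above every DMSO well, and MAFK was at 0 to 2.40 CPM and was not called. TFE3, which drives lysosomal genes, stood at 129, 93.3, 124 and 119 CPM at 0.37 µM, against 21.4 to 65.96 CPM (median 38.7) in DMSO (log2 change 1.57 ± 0.27, adjusted p = 2.48e-06). Its relative TFEB was not called (log2 change 0.32 ± 0.69). ATF4 held 285, 319, 277 and 295 CPM at 0.37 µM, against 139 to 216 CPM (median 171) in DMSO (log2 change 0.79 ± 0.13, adjusted p = 1.19e-06). DDIT3, which encodes CHOP, held 122, 50.7, 81.1 and 83.9 CPM at 0.37 µM, against 13.9 to 51.6 CPM (median 28.8) in DMSO (log2 change 1.54 ± 0.24, adjusted p = 2.73e-07), with K6 the highest and K16 inside the DMSO range. ATF3 stood at 49.5, 20.4, 23.02 and 8.87 CPM at 0.37 µM, against 0 to 10.9 CPM in DMSO, with L16 inside the DMSO range (log2 change 2.56 ± 0.54). It was not called against the DMSO wells in plate rows K and L, or against the wells at 0.0005 µM. Nor was it called in the right-hand wells alone (K16 and L16 against the DMSO wells there). XBP1, a factor of the endoplasmic reticulum stress response, rose by 0.98 ± 0.16.

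The factors HSF1 and HSF2 were not called at the RNA level (log2 changes 0.18 ± 0.34 and 0.43 ± 0.44), nor were NFE2L1 (-0.22 ± 0.31), MTF1, the metal-responsive factor (-0.39 ± 0.46), ATF6 (-0.13 ± 0.38), HIF1A (-0.70 ± 0.31) and MYC (-0.29 ± 0.30). Both sterol factors fell. SREBF1 stood at 3.76, 3.55, 2.46 and 2.55 CPM at 0.37 µM, against 17.6 to 62.3 CPM (median 35.1) in DMSO (log2 change -3.53 ± 0.47, adjusted p = 3.83e-09), and SREBF2 at 14.3, 11.8, 10.9 and 10.6 CPM at 0.37 µM, against 28.5 to 66.8 CPM (median 49.2) in DMSO (log2 change -2.04 ± 0.30, adjusted p = 4.97e-08), with no overlap between the groups for either gene.

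In the NRF2 list 29 of 41 tested genes rose and 1 fell, with a median change of 2.03 against -0.14 over all genes. AKR1B10, an aldo-keto reductase, stood at 7.73, 21.2, 20.9 and 26.4 CPM at 0.37 µM, against 0 to 2.79 CPM (median 0) in DMSO (log2 change 6.32 ± 0.91, adjusted p = 5.49e-08). TRIM16L rose by 5.43 ± 0.32 and TXN, thioredoxin, stood at 6123, 7019, 6588 and 6832 CPM at 0.37 µM, against 1221 to 1970.1 CPM (median 1606) in DMSO (log2 change 2.03 ± 0.09, adjusted p = 2.85e-33). The pseudogene NMRAL2P, a known NRF2 target, had 35.1, 15.8, 13.7 and 10.6 CPM at 0.37 µM, against 0 to 2.14 CPM (median 0) in DMSO (log2 change 5.23 ± 0.74, adjusted p = 2.9e-08). The gene that fell was TKT, transketolase of the pentose phosphate pathway, with 230.4, 236, 253 and 242 CPM at 0.37 µM, against 370.2 to 519.5 CPM (median 461) in DMSO (log2 change -0.92 ± 0.15, adjusted p = 1.54e-06), so all 4 wells lay below every DMSO well.

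The largest rises included genes with little or no RNA in DMSO. The chemokine CXCL8 (ENSG00000169429; chromosome 4, 73740506 to 73743716; positions are GRCh38 from GENCODE release 29), which attracts neutrophils, held 80.3, 69.2, 77.6 and 81.1 CPM at 0.37 µM and 0 counts in all 32 DMSO wells. Its level was at least 5186-fold higher, against a floor of 3 counts over the DMSO wells, and the 4 wells lay close together. TREML3P, a pseudogene, held 47.7, 32.6, 45.8 and 41.1 CPM against 0 counts in DMSO and was at least 2818-fold higher. MYCT1, which was named as a MYC target, stood at 94.03, 15.6, 41.3 and 41.98 CPM at 0.37 µM, against 0 to 0.310 CPM (median 0) in DMSO, and its wells spread from 15.6 to 94.03 CPM. SPP1 (ENSG00000118785; chromosome 4, 87975650 to 87983426) encodes osteopontin, a secreted ligand of integrins, and stood at 432, 286, 398 and 463 CPM at 0.37 µM, against 0 to 8.91 CPM (median 1.83) in DMSO (log2 change 7.02 ± 0.59, adjusted p = 1.59e-15). SLCO2B1, an organic anion transporter, stood at 57.3, 39.9, 16.4 and 40.96 CPM at 0.37 µM, against 0 to 1.07 CPM (median 0) in DMSO (log2 change 8.01 ± 0.75, adjusted p = 1.61e-13). MLLT11 stood at 839.5, 349.6, 489.5 and 491 CPM at 0.37 µM, against 0 to 20.97 CPM (median 5.24) in DMSO (log2 change 6.53 ± 0.50, adjusted p = 1.51e-17), with K6 the highest.

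Further large rises were fitted for ZNF365 (7.70 ± 0.86), F2RL2, a receptor of the thrombin receptor family (6.79 ± 0.87), KRTAP2-3, a keratin-associated protein (6.67 ± 0.77), B4GALNT1, a ganglioside synthase (6.49 ± 0.77), and ULBP1, a ligand of the natural killer receptor NKG2D (5.48 ± 0.76). ULBP1 held 108, 17.5, 30.8 and 26.7 CPM at 0.37 µM, and its change was 4.61 without K6. DHRS2, a short-chain dehydrogenase, stood at 91.6, 6.98, 15.6 and 17.4 CPM at 0.37 µM, against 0 to 1.92 CPM (median 0) in DMSO (log2 change 6.63 ± 0.83, adjusted p = 1.58e-09), and K6 held 6.88 times the mean of the other wells, with a change of 5.32 without it. The call of ZNF365 was lost with the DESeq2 Wald test.

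**Figure D3:**
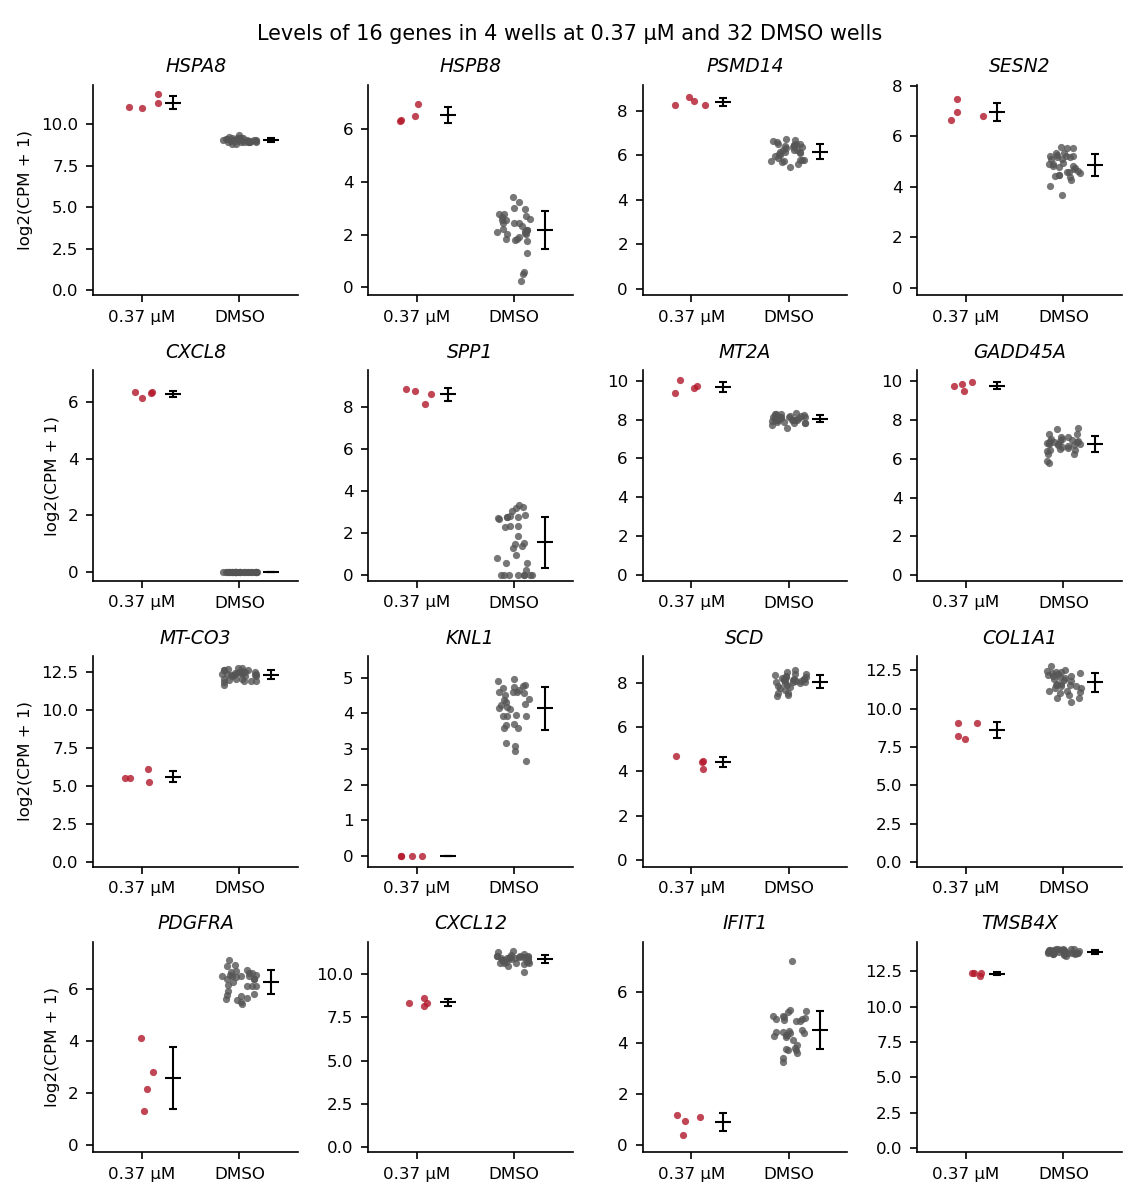
Levels of 16 genes are plotted per well as log2(CPM + 1), with the 4 wells at 0.37 µM left of the 32 DMSO wells in each panel, and bars give the mean and SD. HSPA8, PSMD14, SESN2 and CXCL8 lie above every DMSO well, and MT-CO3, COL1A1, PDGFRA and CXCL12 lie below every DMSO well.

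The promoters of chaperone genes open the account of the folding machinery, because HSF1 binds inverted GAA units. The windows below are the bases before the annotated start (RefSeq, GRCh38.p14), read along the gene, with capitals marking GAANNTTC or TTCNNGAA, 2 units facing each other. HSPA1A and HSPB8 are shown for their rise and the same 8 letters, and CHORDC1 for its run of overlapping units.
HSPA1A (chr6:31815423-31815542, plus strand): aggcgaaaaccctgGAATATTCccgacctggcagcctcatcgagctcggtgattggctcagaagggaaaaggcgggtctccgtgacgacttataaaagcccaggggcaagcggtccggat
HSPB8 (chr12:119178811-119178930, plus strand): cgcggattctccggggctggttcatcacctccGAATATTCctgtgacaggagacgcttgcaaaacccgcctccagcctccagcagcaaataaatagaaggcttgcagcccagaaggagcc
CHORDC1 (chr11:90223050-90223169, minus strand): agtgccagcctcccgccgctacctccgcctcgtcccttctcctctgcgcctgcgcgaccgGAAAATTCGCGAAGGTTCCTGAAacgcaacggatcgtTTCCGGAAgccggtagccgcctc
Within 250 bases before the start and on both strands, this motif was found in 16 of 79 promoters of the chaperone lists (20.3%) and in 5 of 11 of the HSP70 list (45.5%). It was found in 8.95% of the 10920 promoters of tested genes and in 11.7% of all 27305 promoters. In promoters of all genes called higher its share was 8.74%, close to that of tested genes. A match describes the letters and is no proof of a site.

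Cytosolic chaperones that passed the test were mostly higher at 0.37 µM, and many members did not pass it. In the HSP70 and HSP110 list, the ATP-driven peptide binders, 6 of 13 rose and 0 fell (median 1.19). Without K6 the same 6 rose, and the median was 0.82. HSPA1A was 3859, 1957, 2685 and 2306 CPM at 0.37 µM, against 69.6 to 151 CPM (median 110.3) in DMSO and HSPA1B was 1064, 684, 784 and 569 CPM at 0.37 µM, against 47.4 to 149.95 CPM (median 84.6) in DMSO. These near-identical copies can exchange reads, so their separate levels are uncertain. HSPA8 (ENSG00000109971; chromosome 11, 123057489 to 123063230), the constitutive HSP70, stood at 3637, 1990.4, 2428 and 2117 CPM at 0.37 µM, against 449 to 636 CPM (median 521) in DMSO (log2 change 2.28 ± 0.10, adjusted p = 1.32e-32), and the exchange factor HSPH1 rose by 1.86 ± 0.24. Among J-domain and BAG co-chaperones, which hand clients to HSP70, 14 of 29 rose and 2 fell (median 0.68). Without K6, or with size factors, 1 fell. DNAJA1 stood at 587, 520.1, 585 and 637 CPM at 0.37 µM, against 82.9 to 186 CPM (median 129.6) in DMSO (log2 change 2.17 ± 0.17, adjusted p = 5.11e-18). DNAJA4 and DNAJB4 rose by 3.14 ± 0.65 and 2.36 ± 0.49, and both calls were lost with the DMSO wells in plate rows K and L. DNAJB5 fell to 2.76, 9.15, 9.11 and 9.58 CPM against 11.1 to 42.7 CPM in DMSO. BAG2 fell by 0.59 ± 0.23 on the log2 scale (adjusted p = 0.0478), a call lost without any one of the 4 wells.

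In the HSP90 system, which matures kinases and receptors, 10 of 16 rose and 0 fell (median 0.73). The stress-induced HSP90AA1 stood at 2630.4, 1931, 2133 and 2361 CPM at 0.37 µM, against 422 to 576 CPM (median 495) in DMSO (log2 change 2.19 ± 0.14, adjusted p = 8.97e-23). Its co-chaperone FKBP4, an immunophilin, stood at 259.7, 222, 239 and 271 CPM at 0.37 µM, against 9.74 to 48.5 CPM (median 34.3) in DMSO (log2 change 2.88 ± 0.20, adjusted p = 9.29e-21). AHSA1, which speeds the ATPase of HSP90, rose by 1.97 ± 0.18, and CHORDC1 by 2.43 ± 0.32. None of the 4 wells overlapped DMSO for these genes. Small heat shock proteins, which hold unfolded clients without ATP, split into 3 that rose and 1 that fell of 7. Their median was -0.16 and became 0.09 with size factors. HSPB8, a partner of BAG3, stood at 124, 77.996, 80.5 and 88.7 CPM at 0.37 µM, against 0.190 to 9.73 CPM (median 3.61) in DMSO (log2 change 4.52 ± 0.33, adjusted p = 2.88e-19). HSPB1 rose by 0.66 ± 0.11. HSPB7, known from heart muscle, fell to 12.8, 7.66, 20.1 and 12.5 CPM against 24.02 to 46.9 CPM in DMSO (log2 change -1.35 ± 0.27, adjusted p = 4.33e-05).

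The chaperonin CCT, the ring that folds actin and tubulin, and its feeder prefoldin had 8 of 14 genes higher and 1 lower (median 0.64), and 11 and 0 with size factors. CCT2 stood at 501, 500.5, 444 and 462 CPM at 0.37 µM, against 129 to 219.8 CPM (median 173) in DMSO (log2 change 1.43 ± 0.15, adjusted p = 2.41e-12), and TCP1 and PFDN6 rose by 1.33 ± 0.18 and 1.45 ± 0.21. The lower gene, PFDN5 (-0.35 ± 0.12), lost its call without replicate 2 or 3 and with size factors. Mitochondrial chaperones and proteases had 6 of 15 higher and 0 lower (median 0.75). HSPD1, the HSP60 of the matrix, stood at 1219.5, 956, 1099.8 and 1009 CPM at 0.37 µM, against 228 to 369 CPM (median 291) in DMSO (log2 change 1.88 ± 0.11, adjusted p = 3.21e-25), and HSPA9, the mitochondrial HSP70, rose by 1.15 ± 0.18.

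Proteasome genes rose across the particle. Of 45 tested, 31 rose and 4 fell (median 1.10), and 27 had all 4 wells above every DMSO well. PSMD14 (ENSG00000115233; chromosome 2, 161308038 to 161411717), the deubiquitinase of the lid, stood at 394, 301, 304 and 344 CPM at 0.37 µM, against 43.7 to 105 CPM (median 71.7) in DMSO (log2 change 2.21 ± 0.21, adjusted p = 4.7e-14). PSMB7, a catalytic subunit of the core, stood at 379, 315, 379 and 334 CPM at 0.37 µM, against 72.95 to 123 CPM (median 99.04) in DMSO (log2 change 1.84 ± 0.16, adjusted p = 1.42e-16). ADRM1, a ubiquitin receptor of the base, stood at 459.5, 323, 401 and 396 CPM at 0.37 µM, against 81.4 to 154 CPM (median 108) in DMSO (log2 change 1.84 ± 0.20, adjusted p = 5.39e-12), and PSMD3, a lid subunit, rose by 1.69 ± 0.20. The 4 genes that fell were the 3 interferon-induced subunits that replace the standard catalytic subunits and a part of the PA28 activator. PSMB9 fell to 17.7, 12.01, 16.4 and 13.96 CPM against 49.7 to 117 CPM in DMSO (log2 change -2.30 ± 0.29, adjusted p = 4.42e-10), PSMB8 fell by 0.91 ± 0.24, PSMB10 fell by 1.36 ± 0.44 and PSME1 fell by 0.51 ± 0.15 on the log2 scale. PSMB8 and PSME1 were named after their values were seen. Without K6, 29 rose and 2 fell, and PSMB10 was among the calls lost.

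The antioxidant response element was looked for as TGACNNNGC, and capitals mark it in the promoters of ADRM1 and PSMD3 (RefSeq, GRCh38.p14). PSMD3 was chosen after values were seen, for its match.
ADRM1 (chr20:62302759-62302878, plus strand): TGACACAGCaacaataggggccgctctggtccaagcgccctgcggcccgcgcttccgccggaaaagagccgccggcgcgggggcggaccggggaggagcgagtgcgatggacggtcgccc
PSMD3 (chr17:39980687-39980806, plus strand): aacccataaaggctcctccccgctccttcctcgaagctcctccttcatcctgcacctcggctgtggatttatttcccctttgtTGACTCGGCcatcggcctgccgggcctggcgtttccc
The motif stood in 10 of 39 proteasome promoters (25.6%) and in 8 of 30 promoters of the NRF2 list (26.7%). It stood in 15.3% of promoters of all genes called higher, in 11.8% of those of tested genes and in 11.0% of all promoters.

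Around the proteasome, 14 of 27 genes of ubiquitin and of p97, the ATPase that extracts marked proteins, rose and 1 fell (median 0.74). ZFAND2A, a stress-induced proteasome-associated protein, stood at 190.4, 95.2, 95.3 and 124 CPM at 0.37 µM, against 5.59 to 21.1 CPM (median 12.4) in DMSO (log2 change 3.24 ± 0.23, adjusted p = 6.99e-20). UFD1, an adaptor of p97, stood at 303, 166, 231 and 226 CPM at 0.37 µM, against 40.3 to 92.4 CPM (median 61.4) in DMSO (log2 change 1.88 ± 0.20, adjusted p = 1.52e-12), and UBQLN1, a shuttle of ubiquitinated proteins, rose by 1.70 ± 0.25. DDI2, the protease that activates NRF1, fell to 3.98, 1.94, 4.50 and 6.62 CPM against 1.14 to 38.1 CPM in DMSO (log2 change -1.84 ± 0.57, adjusted p = 0.0117), and the groups overlapped. That call was lost with the drug and DMSO wells of either plate side alone and without replicate 1.

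Amino acid transporters led the rises among targets of the integrated stress response. In this list 18 of 33 rose and 0 fell (median 0.99). SLC7A5 (ENSG00000103257; chromosome 16, 87830023 to 87869488), the leucine transporter that works with SLC3A2, stood at 65.3, 71.9, 45.6 and 77.9 CPM at 0.37 µM, against 0.215 to 16.8 CPM (median 3.71) in DMSO (log2 change 3.61 ± 0.44, adjusted p = 2.86e-10). ADM2, a peptide hormone, rose by 2.80 ± 0.67, and ASNS, asparagine synthetase, by 2.06 ± 0.25. CHAC1, which breaks down glutathione, stood at 5.08, 8.81, 4.20 and 5.81 CPM at 0.37 µM, against 0 to 4.06 CPM (median 0.527) in DMSO (log2 change 2.59 ± 0.75, adjusted p = 0.00602) and overlapped no DMSO well. GDF15, a secreted stress cytokine, held 175, 54.1, 84.9 and 91.4 CPM, K6 the highest, against 0.570 to 22.3 CPM in DMSO. Among aminoacyl-tRNA synthetases 7 of 20 rose and 1 fell, and 4 rose without K6 and 12 with size factors. GARS1, for glycine, stood at 557, 428, 455 and 456 CPM at 0.37 µM, against 159.5 to 222 CPM (median 198) in DMSO (log2 change 1.29 ± 0.11, adjusted p = 8.27e-16), and MARS1, for methionine, rose by 1.69 ± 0.21. QARS1, for glutamine, fell to 15.03, 26.4, 23.2 and 24.1 CPM against 37.99 to 94.7 CPM in DMSO (log2 change -1.58 ± 0.23, adjusted p = 4.8e-08).

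ATF4 acts with C/EBP factors at composite elements, searched as TGATGNAA on both strands. Capitals mark it in the promoters of ASNS and CHAC1, both chosen after values were seen, for their match (RefSeq, GRCh38.p14). In CHAC1 it lies on the other strand, and the window runs from 209 to 90 bases before the start.
ASNS (chr7:97872409-97872528, minus strand): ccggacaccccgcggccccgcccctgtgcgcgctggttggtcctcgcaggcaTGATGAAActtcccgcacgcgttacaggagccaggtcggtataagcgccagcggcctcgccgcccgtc
CHAC1 (chr15:40953262-40953381, plus strand): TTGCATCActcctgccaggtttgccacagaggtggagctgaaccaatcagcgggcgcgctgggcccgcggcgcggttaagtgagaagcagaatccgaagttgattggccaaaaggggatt
It stood in 4 of 27 promoters of the list (14.8%), in 1.55% of those of tested genes and in 3.19% of all promoters. Among all genes called higher it stood in 1.25% of promoters.

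Folding genes of the endoplasmic reticulum were mixed, with 6 of 27 higher and 5 lower (median 0.23), 3 higher and 4 lower without K6, and 8 higher and 3 lower with size factors. SSR3, of the translocon, stood at 674, 714, 691 and 733 CPM at 0.37 µM, against 213 to 343 CPM (median 277) in DMSO (log2 change 1.36 ± 0.13, adjusted p = 1.56e-14), and DNAJB9, a J-domain protein of this compartment, stood at 121, 51.7, 137 and 50.03 CPM at 0.37 µM, against 1.70 to 42.2 CPM (median 16.01) in DMSO (log2 change 2.42 ± 0.41, adjusted p = 2.8e-06). PDIA6, a disulfide isomerase, fell to 49.1, 23.7, 32.1 and 27.7 CPM against 37.3 to 159.7 CPM in DMSO, with overlap (log2 change -1.52 ± 0.39, adjusted p = 0.00181). PDIA6 was not called in the left-hand wells alone (K6 and L6 against the DMSO wells there), nor against the DMSO wells in plate rows K and L. Autophagy and lysosomal genes had 12 of 34 higher and 2 lower (median 0.27). ATP6V1B2, a subunit of the proton pump, stood at 283, 209.7, 245 and 229 CPM at 0.37 µM, against 29.3 to 70.1 CPM (median 50.5) in DMSO (log2 change 2.27 ± 0.17, adjusted p = 9.04e-19), and GABARAPL1, which coats autophagosomes, stood at 346, 188, 286 and 209 CPM at 0.37 µM, against 22.5 to 94.98 CPM (median 56.3) in DMSO (log2 change 2.17 ± 0.22, adjusted p = 1.12e-12). GLA, a lysosomal galactosidase, rose by 2.94 ± 0.36. CTSK, the collagen-cleaving cathepsin of this list, fell to 863, 886, 716 and 832 CPM against 916 to 2338 CPM in DMSO (log2 change -0.89 ± 0.19, adjusted p = 0.000149), with no overlap.

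Metallothioneins, small metal-binding proteins, did not move as a block: of 11 genes of metal binding and zinc transport, 3 rose and 3 fell. MT2A (ENSG00000125148; chromosome 16, 56608199 to 56609497) stood at 1035, 663, 780.1 and 850.2 CPM at 0.37 µM, against 187 to 317 CPM (median 261) in DMSO (log2 change 1.66 ± 0.14, adjusted p = 5.78e-16). MT1G stood at 44.5, 4.80, 15.04 and 9.07 CPM at 0.37 µM, against 0 to 2.05 CPM (median 0) in DMSO (log2 change 6.94 ± 0.89, adjusted p = 6.1e-09), most of it in K6, without which the change was 6.03. MT1X rose by 1.76 ± 0.38, and that call was lost without K6. MT1M fell to 35.4, 9.49, 6.34 and 1.02 CPM against 23.1 to 79.1 CPM in DMSO (log2 change -1.96 ± 0.39, adjusted p = 4.85e-05), with K6 inside the DMSO range and a change of -3.17 without it. The MT1 genes are close copies whose reads may be shared between them. Tubulin and cytoskeleton genes had 7 of 20 higher and 3 lower, and 11 and 1 with size factors. TUBA4A stood at 204, 132, 173 and 146 CPM at 0.37 µM, against 6.56 to 36.9 CPM (median 16.9) in DMSO (log2 change 3.25 ± 0.24, adjusted p = 1.86e-19) and TUBB2A at 189, 156, 172 and 183 CPM at 0.37 µM, against 22.6 to 51.4 CPM (median 36.3) in DMSO (log2 change 2.31 ± 0.17, adjusted p = 3.61e-19), while STMN1, which destabilises microtubules, fell to 26.5, 47.1, 27.1 and 37.4 CPM against 80.1 to 233 CPM in DMSO (log2 change -2.17 ± 0.26, adjusted p = 1.09e-10).

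Among secreted inflammatory signals 2 of 23 rose and 4 fell, and 1 rose without K6. CXCL12 (ENSG00000107562; chromosome 10, 44370165 to 44386493), the stromal ligand of CXCR4, fell to 282, 393, 319 and 317 CPM against 1088 to 2503 CPM in DMSO (log2 change -2.50 ± 0.26, adjusted p = 3.91e-13), with no overlap. CCL2, which attracts monocytes, fell by 1.46 ± 0.33 on the log2 scale, with K6 inside the DMSO range. Interferon-stimulated genes fell more often than they rose, 14 against 1 of 34 (median -0.77). IFIT1 (ENSG00000185745; chromosome 10, 89392546 to 89406486), an antiviral sensor, fell to 0.884, 1.26, 1.13 and 0.306 CPM against 8.50 to 149 CPM in DMSO (log2 change -4.84 ± 0.67, adjusted p = 1.77e-08). OAS3, a sensor of double-stranded RNA, fell by 3.14 ± 0.64 on the log2 scale.

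Immediate early genes had 8 of 29 higher and 5 lower, 5 higher without K6, and 14 higher and 3 lower with size factors. DUSP5, a nuclear phosphatase of ERK, stood at 368, 234, 246 and 218 CPM at 0.37 µM, against 3.71 to 43.3 CPM (median 21.8) in DMSO (log2 change 3.53 ± 0.28, adjusted p = 9.15e-18). FOS stood at 62.98, 4.003, 40.2 and 4.38 CPM at 0.37 µM, against 0 to 12.6 CPM (median 0.132) in DMSO (log2 change 3.72 ± 0.68, adjusted p = 1.49e-05), high in K6 and L6 and inside the DMSO range in K16 and L16. The change of FOS was 2.93 without K6. Its call was lost with the DESeq2 Wald test and with the 0.0005 µM wells in place of DMSO. It was also lost on the right plate side alone, which holds K16 and L16 but not K6 and L6. JUND fell to 323, 335, 365 and 310.5 CPM against 519.8 to 812 CPM in DMSO (log2 change -0.93 ± 0.24, adjusted p = 0.00225). In the list of YAP and TGF-beta readouts 10 of 31 rose and 7 fell (median 0.22), and 12 rose and 5 fell with size factors. CCN2, a matricellular protein, stood at 561, 133, 246 and 214 CPM at 0.37 µM, against 3.22 to 50.3 CPM (median 27.9) in DMSO (log2 change 3.42 ± 0.32, adjusted p = 1.38e-14), and ANKRD1, a YAP target, stood at 41.8, 3.09, 11.4 and 17.7 CPM at 0.37 µM, against 0 to 1.04 CPM (median 0.307) in DMSO (log2 change 5.52 ± 0.59, adjusted p = 6.2e-12). K6 was the highest well for both, and no well overlapped DMSO. The change of ANKRD1 was 4.74 without K6. CCN5, of the same CCN family, fell to 129, 136, 109 and 126 CPM against 319 to 694 CPM in DMSO (log2 change -1.98 ± 0.22, adjusted p = 5.01e-12). SMAD6, which inhibits BMP signalling, fell by 2.39 ± 0.42 on the log2 scale and stood highest in K6, without which the change was -3.07.

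Genes of DNA damage and growth arrest had 11 of 28 higher and 6 lower (median 0.67), and 8 higher and 3 lower without K6. GADD45A (ENSG00000116717; chromosome 1, 67685061 to 67688338), a growth arrest gene also induced by ATF4, stood at 985, 723, 917 and 867 CPM at 0.37 µM, against 53.04 to 190.5 CPM (median 110.2) in DMSO (log2 change 2.97 ± 0.19, adjusted p = 2.84e-22). SESN2, which restrains mTORC1 and is shared with the ATF4 response, stood at 176, 113, 100.4 and 123 CPM at 0.37 µM, against 11.9 to 47.1 CPM (median 28.1) in DMSO (log2 change 2.12 ± 0.25, adjusted p = 1.02e-10). DDB2, a DNA repair protein, fell to 14.03, 17.04, 19.3 and 16.7 CPM against 24.1 to 65.96 CPM in DMSO (log2 change -1.26 ± 0.31, adjusted p = 0.00111). In the BCL2 family 3 of 14 rose and 3 fell, and 7 rose with size factors. PMAIP1, which encodes the death-promoting NOXA, stood at 85.6, 49.2, 41.4 and 80.7 CPM at 0.37 µM, against 0 to 18.4 CPM (median 3.28) in DMSO (log2 change 3.83 ± 0.70, adjusted p = 1.21e-05), and the protective BCL2L2 stood at 206, 205, 199.95 and 167 CPM at 0.37 µM, against 13.9 to 55.04 CPM (median 30.5) in DMSO (log2 change 2.60 ± 0.30, adjusted p = 4.21e-11). BBC3, which encodes PUMA, fell to 38.2, 28.02, 22.5 and 16.2 CPM against 41.5 to 88.04 CPM in DMSO (log2 change -1.23 ± 0.29, adjusted p = 0.000591), and the protective BCL2L1 fell by 1.15 ± 0.24 on the log2 scale. Members that promote death and members that oppose it thus changed in both directions.

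Genes of cell division fell at 0.37 µM. Their promoters are shown first: the cell cycle homology region, bound by the DREAM complex and its activating forms, was searched as TTTGAA. Capitals mark it in MKI67 and in CCNB2. CCNB2 was chosen after values were seen, for its match (RefSeq, GRCh38.p14).
MKI67 (chr10:128126424-128126543, minus strand): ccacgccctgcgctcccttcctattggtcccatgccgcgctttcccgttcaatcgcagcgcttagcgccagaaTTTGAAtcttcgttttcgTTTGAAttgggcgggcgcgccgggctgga
CCNB2 (chr15:59105026-59105145, plus strand): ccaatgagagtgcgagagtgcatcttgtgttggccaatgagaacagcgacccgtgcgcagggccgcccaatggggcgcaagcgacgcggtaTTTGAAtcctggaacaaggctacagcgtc
The motif stood in 27 of 59 promoters of the mitosis list (45.8%), in 8.70% of those of tested genes and in 13.6% of all promoters. The CCAAT box, bound by NF-Y, stood in 42 of 59 (71.2%), against 34.8% and 33.0%. In promoters of all genes called lower the shares were 9.22% for TTTGAA and 35.7% for the CCAAT box.

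Of 70 mitosis genes, 55 fell and 2 rose (median -2.69). KNL1 (ENSG00000137812; chromosome 15, 40594020 to 40664342), a scaffold of the kinetochore, had 0 counts in all 4 wells at 0.37 µM against 5.32 to 30.1 CPM in DMSO, at least 235-fold lower against a floor of 3 counts over the group. KIF20A, a kinesin of cytokinesis, fell to 1.10, 2.52, 2.66 and 0 CPM against 15.1 to 104 CPM in DMSO (log2 change -4.85 ± 0.62, adjusted p = 1.17e-09). CCNB2, a cyclin of mitotic entry, fell to 0.773, 11.6, 3.58 and 1.22 CPM against 11.3 to 68.4 CPM in DMSO (log2 change -2.94 ± 0.50, adjusted p = 2.23e-06), with K16 inside the DMSO range. CDK1 was at 0, 1.03, 0 and 0.204 CPM against 0.954 to 39.5 CPM in DMSO (log2 change -5.32 ± 0.89, adjusted p = 1.7e-06), and the change was -7.13 without K16. The genes that rose were H2AZ1, a histone variant (0.96 ± 0.16), and TUBB4B, a tubulin (0.65 ± 0.18). Of 48 genes of S phase entry and replication, 26 fell and 2 rose (median -1.66), and 1 rose without K6. RRM2, the regulated subunit of ribonucleotide reductase, fell to 3.20, 3.55, 2.15 and 0.713 CPM against 27.5 to 84.5 CPM in DMSO (log2 change -4.43 ± 0.44, adjusted p = 2.69e-13). MCM4, of the replicative helicase, fell by 2.46 ± 0.44 on the log2 scale. CDK6, a kinase of G1, rose by 1.11 ± 0.24 and CCND3, its cyclin partner, by 0.91 ± 0.30, a call lost without replicate 1, 2 or 4.

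Sterol genes fell at 0.37 µM. In cholesterol synthesis and uptake 21 of 29 fell and 0 rose (median -1.93). MVK (ENSG00000110921; chromosome 12, 109573255 to 109598117), mevalonate kinase, fell to 3.31, 0.801, 2.76 and 1.83 CPM against 7.79 to 37.5 CPM in DMSO (log2 change -2.89 ± 0.41, adjusted p = 3.9e-08). FDPS, which makes farnesyl pyrophosphate, fell to 18.1, 27.2, 31.3 and 25.98 CPM against 126 to 221 CPM in DMSO (log2 change -2.64 ± 0.18, adjusted p = 2.01e-21). The CCAAT box stood in 17 of 23 promoters of the list (73.9%) and the sterol element TCACNCCAC in 1 of 23 (4.35%), against 0.861% of those of tested genes and 0.875% of all.

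Among fatty acid genes 6 of 22 fell and 3 rose (median -0.57). SCD, which makes oleate, fell to 24.5, 16.1, 20.7 and 21.3 CPM against 169.5 to 383 CPM in DMSO (log2 change -3.70 ± 0.25, adjusted p = 1.7e-21), and the desaturase FADS2 fell by 2.08 ± 0.28 on the log2 scale. FADS3, of the same gene cluster, rose by 1.38 ± 0.22. In glycolysis 10 of 26 rose and 2 fell (median 0.52), and 1 fell without K6 or with size factors. SLC2A3, a high-affinity glucose transporter, stood at 186, 116, 118 and 101 CPM at 0.37 µM, against 3.82 to 44.6 CPM (median 25.7) in DMSO (log2 change 2.33 ± 0.30, adjusted p = 2.33e-09), and HK1, a hexokinase, rose by 1.17 ± 0.16. LDHA, lactate dehydrogenase, fell by 0.68 ± 0.20 on the log2 scale, a call lost with size factors.

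Messages of mitochondrial DNA fell, and their nuclear partners moved in both directions. Of 13 mitochondrially encoded mRNAs 11 fell and 0 rose (median -3.25). MT-CO3, of cytochrome oxidase, fell to 37.8, 67.6, 45.8 and 45.04 CPM against 3261 to 6996 CPM in DMSO (log2 change -6.72 ± 0.29, adjusted p = 1.99e-32). MT-CO1 fell to 74.7, 109, 80.1 and 119 CPM against 1148 to 2370.1 CPM (log2 change -4.21 ± 0.29, adjusted p = 1.11e-20), and MT-ATP6, of ATP synthase, fell by 4.20 ± 0.57 on the log2 scale. All wells lay below every DMSO well for each. Of 66 nuclear respiratory genes 5 rose and 13 fell, 7 of them without K6. With size factors 17 rose and 4 fell, so the balance of calls turned round, and the median of -0.01 became 0.24. CYCS, cytochrome c, stood at 175, 167, 131 and 169 CPM at 0.37 µM, against 25.5 to 82.8 CPM (median 45.98) in DMSO (log2 change 1.75 ± 0.24, adjusted p = 6.57e-09), while COX7B, of cytochrome oxidase, fell to 14.5, 28.9, 25.3 and 23.8 CPM against 51.8 to 184 CPM in DMSO (log2 change -2.44 ± 0.44, adjusted p = 7.7e-06). Of 25 genes that transcribe mitochondrial DNA and handle its RNA, 2 rose and 0 fell, and 0 were called without K6. Mitochondrial ribosomal proteins had 12 of 57 higher and 4 lower, with 7 higher without K6 and 21 with size factors.

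Ribosomal proteins of the cytosol took a smaller share of counts, 9.34 ± 0.886% (SD, n = 4) at 0.37 µM against 11.7 ± 0.639% (SD, n = 32) in DMSO (exact two-sided permutation test, p = 3.4e-05, adjusted p = 6.79e-05 over 2 shares tested). Of 76 genes 35 fell and 0 rose, 22 of them without K6. Their median of -0.27 became -0.01 with size factors, which gave 8 higher and 11 lower. RPL10A fell to 622, 864, 763 and 772 CPM against 1295 to 1879 CPM in DMSO (log2 change -1.06 ± 0.10, adjusted p = 1.38e-14). Processed pseudogenes of ribosomal proteins and of EEF1A1 can take reads of their parents. Translation factors had 16 of 43 higher and 5 lower (median 0.11). EIF5, of start codon selection, stood at 503, 407, 506 and 388 CPM at 0.37 µM, against 110.3 to 229 CPM (median 162) in DMSO (log2 change 1.44 ± 0.19, adjusted p = 3.83e-09), and EIF4B, a helicase cofactor, fell to 175, 188, 174 and 196 CPM against 301 to 485 CPM in DMSO (log2 change -1.03 ± 0.17, adjusted p = 1.3e-06). Factors of ribosome biogenesis had 9 of 40 higher and 2 lower, with 5 higher without K6 and 17 higher and 1 lower with size factors, and with RRP12 at 2.73 ± 0.40 and FBL, the nucleolar methyltransferase, at -1.15 ± 0.21 on the log2 scale. Splicing proteins had 7 of 40 higher and 5 lower, 3 and 2 without K6, around a median of -0.13. With size factors 12 were higher and 2 lower, around a median of 0.12.

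The matrix programme of the fibroblasts fell. Of 20 collagen chains 13 fell and 0 rose (median -1.57). COL1A1 (ENSG00000108821; chromosome 17, 50183289 to 50201632), a chain of the main skin collagen, fell to 262, 533, 298 and 522 CPM against 1385 to 7098 CPM in DMSO (log2 change -3.17 ± 0.33, adjusted p = 2.4e-12), and COL6A3, of microfibrillar collagen, to 84.9, 136, 119 and 114 CPM against 293 to 1208 CPM (log2 change -2.56 ± 0.29, adjusted p = 2.56e-11). No well at 0.37 µM reached the lowest DMSO well, though the DMSO wells themselves spread widely. For COL1A1 the DMSO wells differed by plate column, with 1385 to 4033 CPM in column 2 and 2792 to 7098 CPM in column 23. Of 43 matrix glycoproteins and proteoglycans 30 fell and 0 rose (median -1.58). LUM, a proteoglycan of collagen fibrils, fell to 16.5, 16.7, 11.8 and 23.5 CPM against 33.2 to 335 CPM in DMSO (log2 change -3.14 ± 0.51, adjusted p = 7.61e-07), FBN1, fibrillin, fell by 2.32 ± 0.37 and MFAP2, of microfibrils, fell by 2.48 ± 0.26 on the log2 scale. DCN, decorin, fell to 1624, 1711, 1299.7 and 1658 CPM against 2762 to 8240.4 CPM in DMSO (log2 change -1.58 ± 0.21, adjusted p = 3.48e-09).

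Enzymes that modify collagen had 8 of 26 lower and 1 higher, and 5 lower and 1 higher with size factors. LOXL1, a crosslinker of elastin, fell to 36.7, 43.6, 52.9 and 56.96 CPM against 177 to 356 CPM in DMSO (log2 change -2.49 ± 0.29, adjusted p = 4.91e-11), and the lysyl hydroxylase PLOD2 rose, at 118, 36.02, 87.9 and 99.1 CPM at 0.37 µM, against 0 to 18.3 CPM (median 5.45) in DMSO (log2 change 3.68 ± 0.57, adjusted p = 2.65e-07). Proteases and their inhibitors moved both ways, with 4 of 26 higher and 9 lower. MMP1, interstitial collagenase, stood at 251, 152, 199 and 253 CPM at 0.37 µM, against 2.45 to 35.9 CPM (median 9.92) in DMSO (log2 change 4.10 ± 0.33, adjusted p = 7.95e-18), and ADAMTS1, which cleaves proteoglycans, stood at 477, 179, 304 and 176 CPM at 0.37 µM, against 1.14 to 37.99 CPM (median 14.7) in DMSO (log2 change 4.28 ± 0.36, adjusted p = 9.29e-17). PLAU, urokinase, fell to 2.54, 3.55, 7.47 and 4.79 CPM against 61.5 to 135 CPM in DMSO (log2 change -4.30 ± 0.35, adjusted p = 3.65e-17).

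Contractile genes had 19 of 30 lower and 3 higher (median -0.71). CALD1, caldesmon, fell to 95.9, 118, 139.7 and 128 CPM against 443 to 727 CPM in DMSO (log2 change -2.25 ± 0.21, adjusted p = 7.28e-15), MYLK, the kinase of myosin light chains, fell by 2.94 ± 0.32 and LMOD1, leiomodin, fell by 4.25 ± 0.59 on the log2 scale, with a change of -5.49 without K16. TPM3, a tropomyosin, rose by 0.85 ± 0.15. Fibroblast identity genes had 21 of 33 lower and 4 higher (median -0.90), 20 lower and 1 higher without K6. PDGFRA (ENSG00000134853; chromosome 4, 54229097 to 54298247), a PDGF receptor, fell to 5.97, 16.01, 1.43 and 3.36 CPM against 41.3 to 138 CPM in DMSO (log2 change -3.57 ± 0.39, adjusted p = 7.82e-12; -4.46 without K16), and PDGFRB fell by 2.76 ± 0.29 on the log2 scale. The transcription factor TWIST2 fell to 359, 388, 337 and 327 CPM against 1522 to 2178 CPM (log2 change -2.36 ± 0.14, adjusted p = 1.42e-24). HOXB4, of the 4 higher genes, lost its call without K6. Growth factors and receptors had 25 of 50 lower and 6 higher (median -0.84). IGFBP3, which binds insulin-like growth factors, fell to 108, 74.8, 77.98 and 96.5 CPM against 428 to 1048 CPM in DMSO (log2 change -3.09 ± 0.24, adjusted p = 1.46e-18), while FGF5 stood at 284, 258, 204 and 213 CPM at 0.37 µM, against 38.1 to 150.4 CPM (median 84.8) in DMSO (log2 change 1.53 ± 0.26, adjusted p = 2.14e-06). Integrins and adhesion genes had 10 of 24 lower and 2 higher (median -0.79), 1 higher without K6, and 9 lower and 4 higher with size factors. Histone genes had 5 of 18 lower and 3 higher, and 4 of each with size factors. The summed fibroblast markers given above, mostly VIM, share genes with these groups, such as COL1A1, LUM, PDGFRA and TWIST2. The sum is thus no separate measure, and its part in these results was not tested.

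**Figure D4:**
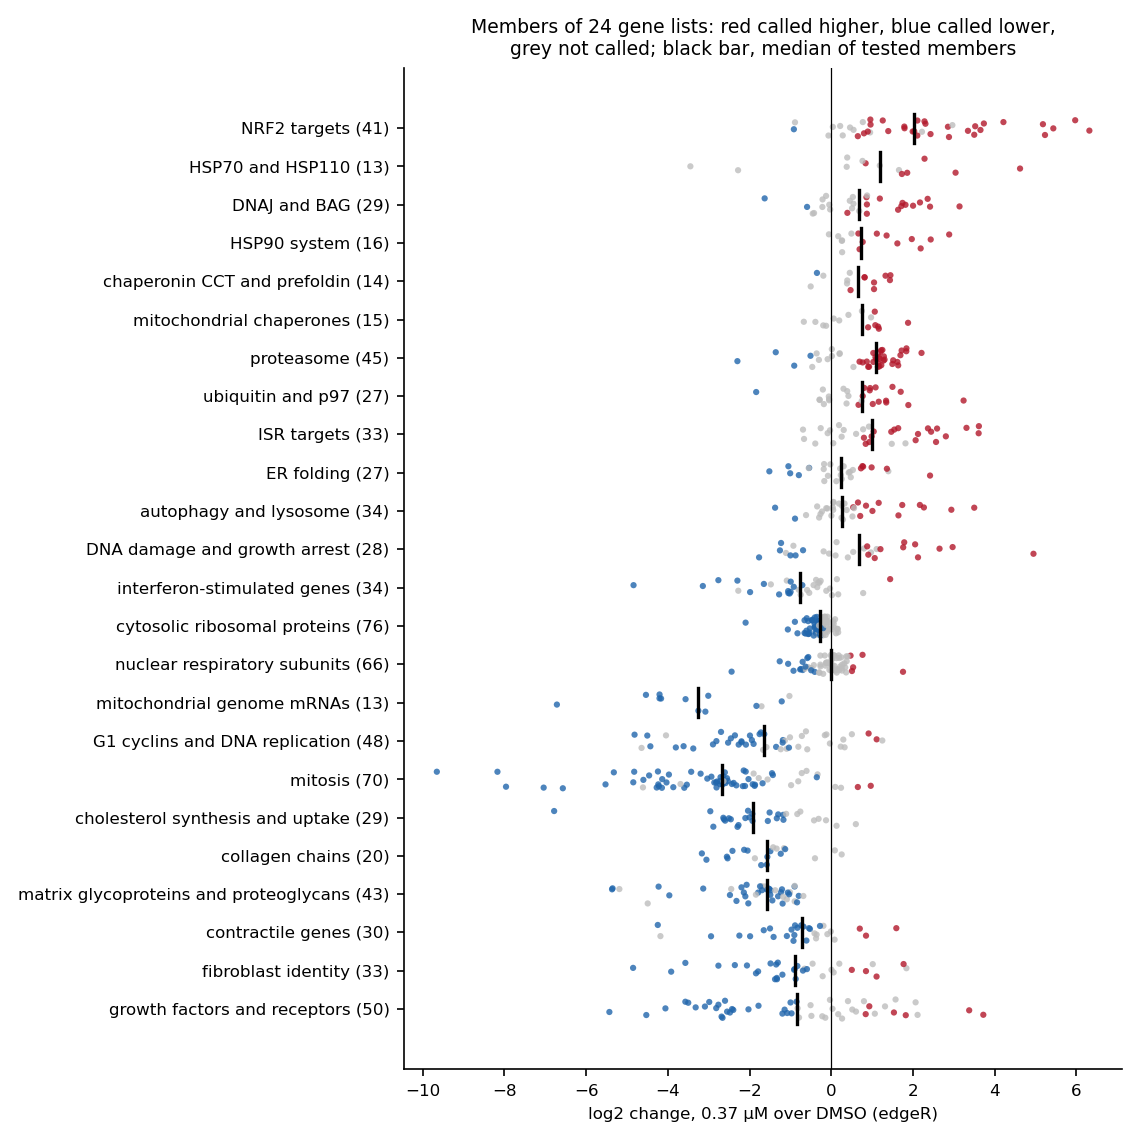
Each point is a tested gene of 1 of 24 gene lists, with its log2 change (0.37 µM over DMSO) on the x axis, red where called higher, blue where called lower and grey where not called, and the bar is the list's median. Medians run from -3.25 for mitochondrial genome mRNAs to 2.03 for NRF2 targets, and of the medians shown that of nuclear respiratory subunits (-0.01) changes sign with size factors, while that of cytosolic ribosomal proteins moves to -0.01.

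Further large falls were in genes outside the groups above. RHOJ, a small GTPase, was at 0.110, 0.457, 0.307 and 0 CPM against 10.8 to 47.8 CPM in DMSO (log2 change -6.90 ± 0.66, adjusted p = 1.98e-14). BDKRB2, the bradykinin receptor, was at 1.55, 0.229, 0 and 0.204 CPM against 29.9 to 83.2 CPM (log2 change -6.84 ± 0.53, adjusted p = 2.21e-18), with a change of -8.47 without K6. ACKR4, a scavenging chemokine receptor, fell to 7.29, 6.29, 3.38 and 2.04 CPM against 101 to 286 CPM (log2 change -5.44 ± 0.79, adjusted p = 6.75e-08). NYNRIN (-5.76 ± 0.68), GALNT15, a glycosyltransferase (-5.10 ± 0.77), PDGFRL (-5.07 ± 0.46), RIPOR2 (-4.83 ± 0.63) and PPL, periplakin (-4.78 ± 0.37), also fell, each with all 4 wells below every DMSO well. Without L16 the changes were -7.39 for NYNRIN, -5.78 for GALNT15 and -5.51 for RIPOR2. Among the most abundant messages TMSB4X, which binds actin monomers, fell to 4697, 5406, 5303 and 5279 CPM against 12584 to 17519.9 CPM in DMSO (log2 change -1.56 ± 0.09, adjusted p = 4.13e-26). VIM, the intermediate filament of fibroblasts, fell to 33725, 33869.9, 30731 and 30902 CPM against 51072 to 68677 CPM (log2 change -0.90 ± 0.08, adjusted p = 1.05e-16). S100A6 (-0.90 ± 0.08), LGALS1, galectin (-0.65 ± 0.09), and ACTB, beta-actin (-0.52 ± 0.08), fell as well. The share of counts on the 50 most abundant genes was 31.1 ± 0.732% at 0.37 µM and 31.3 ± 1.06% in DMSO (SD, n = 4 and 32; exact permutation test, p = 0.685).

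Set directly against the neighbouring doses, 0.37 µM differed from 0.12 µM in 1159 genes (8.13%), 360 higher (2.52%) and 799 lower (5.6%), and from 1.11 µM in 3626 genes (25.4%), 1906 higher (13.4%) and 1720 lower (12.1%). Without K6, 215 genes were higher and 546 lower than at 0.12 µM. Without another well, 262 to 298 were higher and 609 to 635 lower. Proteasome genes were higher at 0.37 µM than at either neighbour, in 19 of 45 against 0.12 µM and in 30 of 45 against 1.11 µM. Mitosis genes were lower in 34 and 50 of 70, cholesterol genes in 16 and 20 of 29, and matrix glycoproteins in 11 and 34 of 43. NRF2 targets were higher in 7 and lower in 4 of 41 against 0.12 µM, and higher in 28 and lower in 0 against 1.11 µM. HSP70 genes were higher in 5 of 13 against 0.12 µM and lower in 6 against 1.11 µM. The 13 mitochondrial mRNAs were lower in 9 against 0.12 µM and higher in 5 against 1.11 µM. The total count was 7758810 ± 920074 at 0.12 µM and 1565630 ± 113804 at 1.11 µM (SD, n = 4 each), so levels at 1.11 µM rest on fewer counts.

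**Figure D5:**
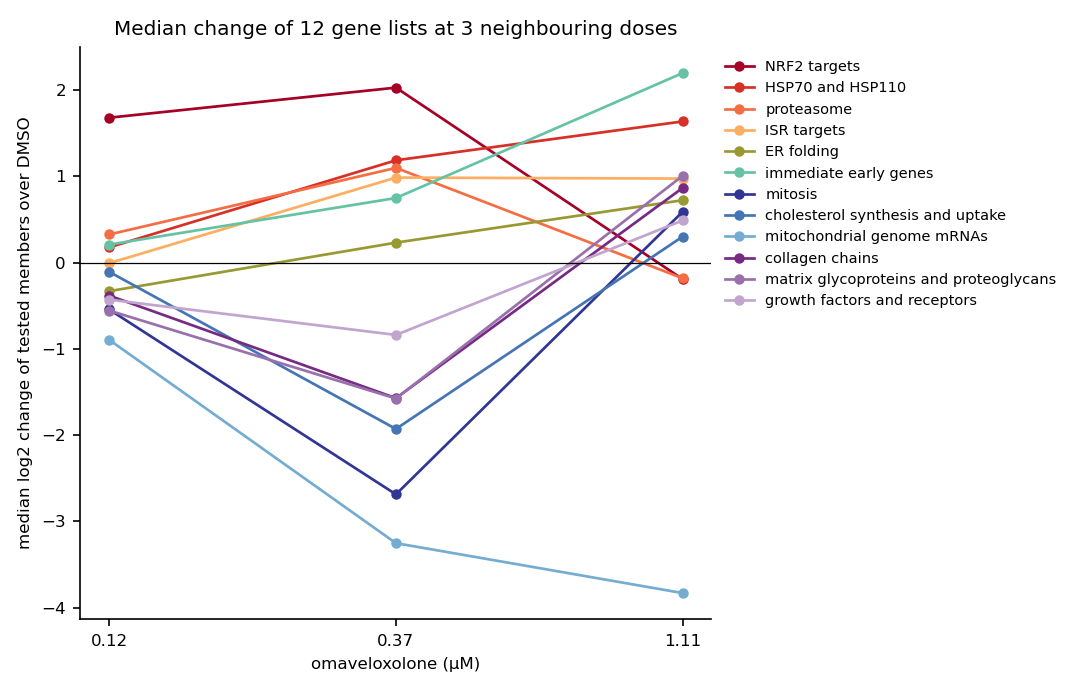
Median log2 change from DMSO (y axis) of 12 gene lists at 0.12, 0.37 and 1.11 µM (x axis), 1 line per list. The proteasome line is highest at 0.37 µM (1.10, against 0.33 at 0.12 µM and -0.18 at 1.11 µM), and the mitosis line is lowest there (-2.69, against -0.54 and 0.59). All 3 doses share the DMSO wells.

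Some genes stood on opposite sides of DMSO at 0.12 and 0.37 µM, and the difference between the doses was tested itself, since both comparisons share the DMSO wells. MT2A changed by -1.22 at 0.12 µM and 1.66 at 0.37 µM on the log2 scale, and the doses differed by 2.87 ± 0.24, adjusted p = 5.69e-16. HSPA5, the main chaperone of the endoplasmic reticulum, changed by -1.84 and 0.76, and the doses differed by 2.60 ± 0.36, adjusted p = 9.08e-08. Its wells at 0.37 µM were 593, 213, 316 and 285 CPM, and the call against DMSO was lost without K6. TWIST1, a mesenchymal transcription factor, changed by -0.62 and 0.50 (1.12 ± 0.18, adjusted p = 1.53e-06 between doses), and its call at 0.37 µM was also lost without K6. In the other direction ASS1, of arginine synthesis, changed by 0.75 and -0.86 (-1.61 ± 0.23, adjusted p = 9.38e-08), OSR1, a fibroblast transcription factor, by 0.71 and -1.005 (-1.72 ± 0.26, adjusted p = 4.36e-07), and EEF1A1, the elongation factor, by 0.28 and -0.55 (-0.83 ± 0.11, adjusted p = 3.5e-08). These genes were chosen for opposite calls, so their directions describe the choice. Against DMSO, 1.31% of genes were called higher and 1.02% lower at 0.12 µM, and 9.76% higher and 13.2% lower at 1.11 µM.

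With the 4 DMSO wells in plate rows K and L, 478 genes were called higher and 753 lower, of which 463 and 751 were among the calls made with all 32. Fewer members were called there, with 20 of 45 proteasome genes higher, 39 of 70 mitosis genes lower and 0 of 57 mitochondrial ribosomal proteins higher. Of the genes named, ADM2, BBC3, BAG2, CCL2, CCND3, CTSK, DDB2, DDI2, H2AX, H2AZ1, H2AZ2, HSPA5, HSPB1, JUND, LDHA, MT1X, PFDN5, PLOD2, PMAIP1, PSMB10, TPM3, TUBB4B, TWIST1 and ULBP1 also lost their calls with these wells. On the left of the plate (K6 and L6 against the DMSO wells there), ADM2, BAG2, BBC3, CCND3 and PSMB10 lost theirs. On the right (K16 and L16 against the DMSO wells there), BAG2, CCND3, DNAJB5, GADD45G, H2AX, HSPA5, LDHA, MT1X, PFDN5, PSMB10 and TWIST1 did. With the 4 wells at 0.0005 µM in place of DMSO, the calls of ADM2, AKR1B10, BAG2, BBC3, CDK6, COX7B, DDI2, DNAJA4, DNAJB4, DNAJB9, H2AX, LDHA, PMAIP1, PSMB10, TUBB4B and TWIST1 were lost.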

How the data were processed

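The deposited values were raw counts per gene and well, whole numbers without normalization, which the authors made with kallisto and bustools on GRCh38, per the submitters' processing notes. Versions, annotation and collapsing of molecular identifiers are not given in the sources used here, which leaves counts as possible reads rather than molecules, and floors cover counting error only. Of 23170 genes, 23078 matched GENCODE release 29. A gene resembling ribosomal RNA, AC010970.1, took 2.03% of counts at 0.37 µM and 2.96% in DMSO and was left out. Totals were 9311006 to 10386930.0 counts at 0.37 µM and 4910842 to 8685535 in DMSO.

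All 72 wells were fitted together with edgeR 4.0.16 in R 4.3.3 (quasi-likelihood test, TMM scaling, robust dispersion, low genes removed by filterByExpr at a minimum count of 10), and p-values were adjusted by Benjamini-Hochberg within each comparison at 0.05. Levels are CPM after TMM scaling. Alternative size factors came from edgeR's RLE scaling, with the same quasi-likelihood test. DESeq2 1.42.0 gave the Wald test, and limma 3.58.1 was loaded with edgeR. The fit was tested on simulated data. Shares of counts were compared by exact permutation over all 58905 splits of 4 and 32 wells. Figures and tables used Python 3.11.15, NumPy 2.4.6, pandas 2.3.3, SciPy 1.17.1 and matplotlib 3.10.9.

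The comparison, the 45 gene lists (1372 genes), the markers and the rule for named genes were chosen with earlier results of these data known. The rule took all stress regulators, up to 4 called members per list with the largest change (at least 10 CPM in a group) and up to 2 in the list's minority direction. It also took the 15 largest rises and falls (at least 20 CPM, all wells outside the DMSO range), the 10 most abundant called genes and the 10 most abundant lower ones, and genes of opposite call at 0.12 µM. Exceptions are named as chosen after values were seen. Promoters are RefSeq's (GRCh38.p14), 250 bases before the start, present for 10920 tested genes. Sex-linked genes used to check samples, and some genes the rule names or the counts include, are not reported here. Alternatives covered scaling, test, filter, reference wells, plate side, replicate block and left-out wells. Keeping the ribosomal RNA-like gene, the wells numbered 1 to 4 without the block, and list counts without K6 were added after seeing the data.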

Additional observations from a re-analysis of the deposited data

Results flagged for a closer look

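In the 4 wells at 0.37 µM, 188 measures were searched for a well far from the other 3 by Dixon’s ratio on log2(CPM + 1). Chance alone marks about 1 group in 20, and 9 genes met it. In this scale K6 was the high well of TWIST1 (10.2) and the low well of DNAJB5 (1.91), FBL (5.68), TCP1 (8.73) and TMSB4X (12.2). K6 was the well with the most MEOX2 (2.03). Well L6 was the low well of CYCS (7.04), and L16 was the low well of BCL2L2 (7.39) and the high well of PSMB8 (5.44).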

How the results depend on the processing

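Against DMSO, leaving out 1 well at 0.37 µM gave 2682 to 2880 called genes (1236 to 1347 higher, 1446 to 1549 lower). The 0.0005 µM wells as the reference gave 2161 (821 higher), the DESeq2 Wald test gave 2668 higher and size factors 2486 higher. Fitted alone, the 2 groups gave 4796 (2216 higher, 2580 lower), more than the 3533 of the fit of all wells. Without the 3.33 and 10 µM wells the fit gave 4285 (1943 and 2342). Fits with fewer wells of the 2 groups compared gave fewer calls. Reducing DMSO alone, to plate rows K and L, gave 1231 (478 higher, 753 lower). The plate sides reduced the wells at 0.37 µM as well as those in DMSO. The left side, with K6 and L6, gave 2126 (994 and 1132), and the right, with K16 and L16, gave 2349 (1052 higher). Same-numbered wells did not deviate together (correlations -0.0361 to 0.0640), so the numbers do not pair wells. The fit with the replicate block called 1209 (472 and 737), against 1279 (495 and 784) in the same wells without it.

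Against 0.12 µM, leaving out 1 well gave 761 to 933 called genes (215 to 298 higher, 546 to 635 lower). The Wald test gave 2274 (1490 higher), size factors 803 higher and 489 lower, the 2 doses alone 2251 (1143 higher), and the fit without the 3.33 and 10 µM wells 1893 (701 higher). The replicate block gave 489 (142 and 347), against 519 (149 and 370) without it. Against 1.11 µM, the Wald test gave 2925 higher, the 2 doses alone 1828 (841 and 987) and the replicate block 2354 (1249 and 1105). The cause of these differences was not tested.

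The ribosomal share differed by -2.61 percentage points with plate rows K and L and by -2.86 with the 0.0005 µM reference (exact adjusted p = 0.0571 in each). The other share tested, that of the 50 most abundant genes, had adjusted p of 0.257 and 0.286 by the same permutation test. Beside these, 0.0571 was the smallest adjusted p that so few reference wells allow for the ribosomal share. The wells at 0.37 µM (8.14 to 10.3%) all lay below the lowest reference well. That well held 11.6% in DMSO of rows K and L and 11.4% at 0.0005 µM. The share of the 50 most abundant genes ran from -0.501 to 0.0918 percentage points without 1 well, and that of the 10 most abundant genes differed by 0.781.

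Regulators that were not called changed sign in some settings. NFE2L1 went to 0.0170 (Wald test), 0.183 (rows K and L), 0.0167 (size factors) and 0.149 (left side), and ATF6 to 0.128, 0.218, 0.128 and 0.0628 in the same 4. TFEB went to -0.00544 (rows K and L) and -0.0943 (left side), HSF1 to -0.0550 (left side), MTF1 to 0.0167 (right side) and MAFK to -0.569 (rows K and L) and -0.204 to 1.01 (without 1 well). Of 261 named genes, 66 lost their call with plate rows K and L, 72 with the replicate block (67 in the same wells without the block) and 10 to 23 without 1 well. Stricter or no filtering, the plate side as a covariate and the ribosomal RNA-like gene kept moved no count of calls against DMSO by over 1.5 times.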

Other observations

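Several secreted regulators and developmental factors that the account above leaves out also differed at 0.37 µM. TNFRSF11B, osteoprotegerin, which blocks the bone signal RANKL, fell to 18.7, 15.8, 3.48 and 3.77 CPM against 77.02 to 169 CPM in DMSO (log2 change -3.50 ± 0.35, adjusted p = 2.69e-13). SFRP1, a secreted WNT antagonist, fell to 4.97, 3.43, 1.53 and 4.69 CPM against 12.5 to 54.8 CPM in DMSO (log2 change -3.32 ± 0.45, adjusted p = 6.1e-09). No well of either gene reached the lowest DMSO well. MEOX2, a homeobox factor of mesenchyme, was at 3.09, 0.229, 0 and 0.102 CPM against 7.67 to 72.97 CPM in DMSO (log2 change -4.85 ± 0.80, adjusted p = 1.34e-06), and K6 held most of what was counted, with a change of -7.60 without it. KITLG, the ligand of KIT, rose to 107, 47.1, 76.5 and 43.3 CPM against 5.85 to 47.5 CPM in DMSO (log2 change 1.82 ± 0.32, adjusted p = 5.6e-06), with K16 and L16 inside the DMSO range. TXNIP was the 1 called gene, lower, of 5 TXNIP and arrestin domain genes.

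Linker histones fell while histone variants moved both ways. H1-2 fell to 19.9, 20.7, 30.7 and 22.2 CPM against 42.2 to 106 CPM in DMSO (log2 change -1.68 ± 0.27, adjusted p = 6.02e-07), and H1-10 fell by 1.57 ± 0.28 on the log2 scale. H2AZ1 stood at 1044, 569, 659.8 and 805 CPM at 0.37 µM, against 280.2 to 615 CPM (median 392) in DMSO (log2 change 0.96 ± 0.16, adjusted p = 6.24e-07), and its close relative H2AZ2 fell by 1.22 ± 0.22. H2AX, which marks DNA breaks when phosphorylated, rose by 0.66 ± 0.21, a call lost without replicate 2 or 4. Replication-dependent histone messages mostly lack a poly(A) tail, while the libraries hold polyadenylated RNA.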
